A study of Homo sapiens with 27 samples.

Results

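The question was whether Compound Kushen Injection (CKI) changed the same genes in 2 human cancer cell lines. CKI is a mixture of plant extracts that is given as an injection in China. The comparison took 12 of the 27 libraries of the series, 3 in each of 4 groups: untreated A431, A431 with CKI, untreated MDA-MB-231 and MDA-MB-231 with CKI. They were chosen by their labels alone. For each gene, the log2 fold change of CKI against untreated in MDA-MB-231 was subtracted from the one in A431, and this difference of differences is called the interaction below. A positive interaction is a more positive CKI effect in A431.

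A431 is an epidermoid carcinoma line and MDA-MB-231 is labelled as an adenocarcinoma line, known as a breast cancer line of mesenchymal character. Each is 1 line, so a difference between them cannot be told apart from a difference between tumour types or donors. All libraries were made from cells harvested at 48 h, and the CKI groups carried 1 mg/ml, labelled as a dilution of 1 in 20. RNA was sequenced as unstranded paired-end libraries, and total counts ran from 18218173 to 22809339 over the 12 libraries. A vehicle control was labelled for A431 and not for MDA-MB-231, so its 3 libraries serve here as another A431 control. Nothing in the labels ties a replicate to a culture, and the p-values below measure the spread between these libraries.

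The lines carried the markers their names ask for. Summed over 15 keratinocyte and epithelial markers, levels lay between 7485 and 8417 CPM (counts scaled to a common library size) in the 6 A431 libraries and between 340.4 and 430.3 CPM in the 6 MDA-MB-231 libraries. The 12 mesenchymal markers summed to between 5640 and 5745 CPM in untreated MDA-MB-231 and to between 1942 and 2144 CPM in untreated A431. With CKI the mesenchymal sum stood at 3316 to 3455 CPM in MDA-MB-231 and at 2552 to 2683 CPM in A431, so the lines lay closer together in the CKI libraries. Untreated MDA-MB-231 replicate 1 stood apart from its group: its counts differed from those of replicates 2 and 3 by chi-square values of 72.9 and 84.1 per degree of freedom, against 2.69 between replicates 2 and 3. Across genes these differences had Spearman correlations of -0.63 and -0.62 with GC content, against -0.14 between replicates 2 and 3. Results that change without replicate 1 are given with their values.

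As background, a plant extract can reach a cell through several known sensors. The aryl hydrocarbon receptor binds flat aromatic molecules and switches on cytochrome P450 genes, NRF2 switches on detoxifying and antioxidant enzymes, and SREBP switches on cholesterol and fatty acid synthesis when sterols in the endoplasmic reticulum run low. Proliferating lines also hold a cell cycle programme in which E2F factors drive replication genes and a later complex drives mitotic genes through sites in their promoters.

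Of 14848 genes tested, 2745 (18.5%) had an interaction past the thresholds, a Benjamini-Hochberg adjusted p under 0.05 in edgeR's quasi-likelihood test and a log2 value beyond 1 in either direction. These genes are said to be called. The interaction was positive in 1317 of them (8.87%) and negative in 1428 (9.62%). The same fit called 3316 genes in A431 (22.3%), 1768 up (11.9%) and 1548 down (10.4%), and 874 in MDA-MB-231 (5.89%), 553 up (3.72%) and 321 down (2.16%). When the vehicle control replaced untreated A431, the interaction was called in 2150 of 14814 genes (14.5%), and 1658 of the 2745 calls (60.4%) remained. The libraries hold the RNA of whole cultures, so fewer cells of a kind and less RNA per cell cannot be told apart.

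Called genes were sorted into classes that do not overlap. The response was shared, that is called in both lines in the same direction with no call of the interaction, in 239 genes (1.61%), 175 of them up and 64 down. It was larger in A431 in 1605 genes (10.8%), 750 up and 855 down. There the interaction and the A431 effect were called, the A431 effect was the larger, and the gene was not opposite as defined below. Of these, 290 had a positive effect in A431 and a negative one in MDA-MB-231, and 341 had the reverse. Only 40 were called in both lines. By the mirrored rule the response was larger in MDA-MB-231 in 178 genes (1.2%), 110 up and 68 down. It was opposite in 581 genes (3.91%), with the interaction called, an adjusted p under 0.05 in each line and unequal signs. That count was 914 without untreated MDA-MB-231 replicate 1 and 370 with the vehicle control for A431. A further 332 genes (2.24%) had an interaction call of another kind, 1147 (7.72%) were called in 1 line with no interaction call, and 384 (2.59%) had at most 3 counts in every library of 1 line and were set aside. In 53 of the 581 opposite genes the change was called in both lines.

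A shared call does not show that the responses were equal. In 93 of the 239 shared genes the 95% interval of the interaction lay within 1 log2 unit on either side of 0. The genes called in both lines in the same direction numbered 288, which is 8.69% of the A431 calls and 33.0% of the MDA-MB-231 calls. Across all 14848 genes the CKI effects in the lines had a Spearman correlation of 0.25, given as a description since genes are not independent.

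**Figure D1:**
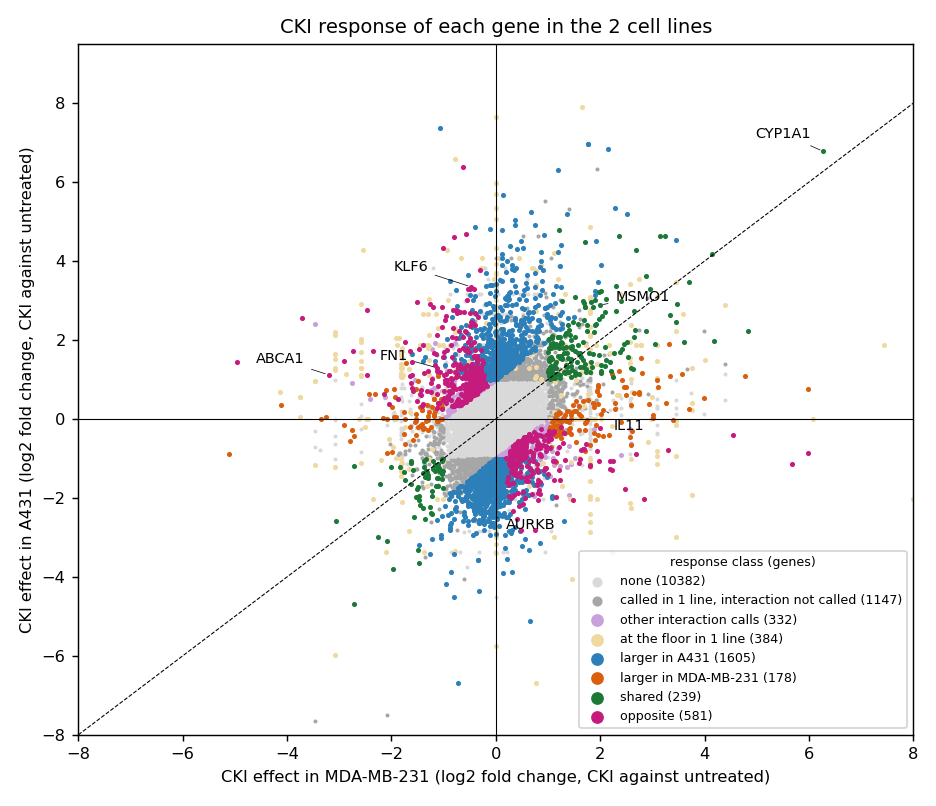
Each point is 1 of 14848 genes, placed by its log2 fold change of CKI against untreated in MDA-MB-231 (horizontal axis) and in A431 (vertical axis) and coloured by response class, with equal effects on the dashed line. The cloud is taller than it is wide, with 3316 genes called in A431 and 874 in MDA-MB-231, and CYP1A1 lies near the dashed line at 6.78 and 6.28.

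The shared response was led by CYP1A1, a cytochrome P450 of xenobiotic metabolism and the best known target of the aryl hydrocarbon receptor. It stood at 3.87, 3.32 and 4.07 CPM in untreated A431 and at 402, 407 and 426 CPM with CKI, and at 1.69, 0.99 and 0.827 CPM in untreated MDA-MB-231 and 88.0, 89.1 and 93.5 CPM with CKI. Every CKI library lay far above every untreated library of its line, a lack of overlap found in 74.3% of all genes tested in A431 and 42.5% in MDA-MB-231. The log2 fold changes were 6.78 ± 0.15 (SE) in A431 and 6.28 ± 0.16 in MDA-MB-231, and the interaction was 0.50 with a 95% interval of 0.01 to 0.99 (edgeR adjusted p = 0.0894). The gene lies at chromosome 15, 75011883 to 75017877 (GRCh37). Its promoter holds the core letters of the dioxin response element, GCGTG, once in the 250 bases before the start, shown here from RefSeq (GRCh38.p14) with those letters in capitals because this gene carries the largest shared rise of any list. The element is common, with 32.2% of 35116 promoters holding it on either strand, and 43.3% of the 11811 promoters found for the 14848 genes tested. Of the aryl hydrocarbon receptor targets, 7 of 9 had a promoter in the table and 2 of those held the letters (28.6%).
CYP1A1 (chr15:74725561-74725605, - strand): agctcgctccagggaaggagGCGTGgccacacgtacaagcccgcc

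The other genes of the aryl hydrocarbon receptor battery split. Of 9 tested members, 6 rose in A431 and 4 rose in MDA-MB-231, 3 had a positive and 1 a negative interaction. Over all genes tested these shares were 11.9%, 3.72%, 8.87% and 9.62%. CYP1B1, a cytochrome P450 that oxidises oestrogens, rose in both lines, by 2.58 ± 0.11 (SE) in A431 and 1.51 ± 0.096 in MDA-MB-231, with an interaction of 1.07. That interaction fell under the threshold of 1 with the vehicle control as A431 control (0.95) and without untreated MDA-MB-231 replicate 1 (0.93). With offsets for GC content and transcript length it was 0.79. ALDH3A1, an aldehyde dehydrogenase, went the other way. It stood at 49.5, 48.6 and 48.3 CPM in untreated A431 and 99.7, 107 and 106 CPM with CKI, against 0.149, 0.387 and 0.0459 CPM and 2.32, 2.0 and 1.94 CPM in MDA-MB-231, where the untreated level is that of a few counts. Its log2 fold change was larger in MDA-MB-231, with an interaction of -2.25 ± 0.35 (SE, edgeR adjusted p = 0.000142). AHR, the receptor gene itself, was opposite, at 0.70 in A431 and -0.38 in MDA-MB-231. Its interaction of 1.08 was 0.68 with the vehicle control and 0.72 with offsets for GC content and transcript length, not called in either.

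The enzymes of cholesterol synthesis formed the list with the largest shared part among the 38 lists. Of 20 enzymes from acetyl-CoA to cholesterol, 15 rose in A431 and 14 in MDA-MB-231, none fell past the thresholds in either line, and 12 were shared. Of all genes tested, 11.9% rose in A431, 3.72% rose in MDA-MB-231 and 1.61% were shared. The median log2 fold change was 1.66 in A431 and 1.16 in MDA-MB-231, beside a median of 0.00 over all genes tested in A431. MSMO1, which removes methyl groups from the sterol ring, stood at 141, 146 and 157 CPM in untreated A431 and 1119, 1053 and 1108 CPM with CKI, and at 109, 86.1 and 80.6 CPM and 368, 365 and 360.0 CPM in MDA-MB-231. The groups did not overlap in either line, which was so for 32.8% of all genes tested. The log2 fold changes were 2.88 ± 0.10 (SE) and 1.99 ± 0.099. HMGCS1, which makes the building block of the pathway, rose by 2.13 and 1.33 on the log2 scale.

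Some members of the sterol list differed between the lines. LSS, the cyclase that closes the sterol rings, stood at 80.0, 75.2 and 90.0 CPM in untreated A431 and 479, 491 and 470.5 CPM with CKI, against 128, 159 and 172 CPM and 228, 237 and 244 CPM in MDA-MB-231. The rise was larger in A431, with an interaction of 1.93 ± 0.14 (SE, edgeR adjusted p = 3.02e-07). The vehicle control mattered for the A431 side of this list: the median interaction was 0.41 with untreated controls in both lines and -0.01 with the vehicle control for A431. HMGCS1 was no longer called in A431 with that control, at 0.67 on the log2 scale, and 10 enzymes were shared instead of 12.

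NRF2 targets and aldo-keto reductases are detoxifying enzymes. Of 26 members, 15 rose in A431 and 12 rose in MDA-MB-231, none fell past the thresholds, and 8 were shared, with medians of 1.03 and 0.93. Among all genes tested, 11.9% rose in A431, 3.72% rose in MDA-MB-231 and 1.61% were shared. AKR1B1, an aldose reductase, stood at 180.5, 180.5 and 189.9 CPM in untreated A431 and 464, 447 and 459 CPM with CKI, and at 167, 169.6 and 166 CPM and 509, 524 and 512 CPM in MDA-MB-231. No CKI library overlapped an untreated library, and the interaction was -0.31 with a 95% interval of -0.48 to -0.13. AKR1C1, which reduces ketosteroids, rose by 2.24 ± 0.091 (SE) in A431 and 2.88 ± 0.13 in MDA-MB-231. Its sequence is close to those of its paralogs, so counts between them are uncertain.

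Some members of the NRF2 list differed between the lines. HMOX1, which breaks down heme, stood at 19.0, 18.8 and 19.3 CPM in untreated A431 and 93.1, 102 and 103 CPM with CKI. In MDA-MB-231 it stood at 16.3, 14.5 and 14.0 CPM and 20.6, 21.2 and 20.6 CPM. The rise was larger in A431 by 1.90 ± 0.11 (SE, edgeR adjusted p = 3.81e-08), and by 1.87 with the vehicle control. GCLC, the catalytic subunit of the first step of glutathione synthesis, was opposite, at -0.26 ± 0.086 (SE) in A431 and 0.87 ± 0.091 in MDA-MB-231.

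Other genes that rose in both lines came from several roles. FBXO2, a ubiquitin ligase adaptor for glycoproteins, rose by 1.57 ± 0.092 (SE) in A431 and 2.54 ± 0.11 in MDA-MB-231. PTGR1, which inactivates prostaglandins and leukotriene B4, rose by 1.11 ± 0.063 and 1.02 ± 0.063, with a 95% interval of the interaction of -0.10 to 0.28. NEU1, a lysosomal sialidase, rose by 1.46 ± 0.065 and 1.01 ± 0.064.

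Genes that fell in both lines were fewer. IGFBP6, a binding protein of insulin-like growth factors, stood at 600.2, 601 and 643 CPM in untreated A431 and 258, 257 and 270.2 CPM with CKI, and at 53.1, 51.5 and 52.0 CPM and 25, 23.4 and 24.9 CPM in MDA-MB-231. The CKI libraries were lower in each line with no overlap and log2 fold changes of -1.23 and -1.09, although the A431 value was not called with offsets for GC content and transcript length (-0.66) or against the vehicle control (-0.84). SLCO4A1, an organic anion transporter, changed by -1.33 ± 0.10 (SE) and -1.33 ± 0.085, and FERMT1, an integrin activator of keratinocytes, by -1.07 ± 0.086 and -1.63 ± 0.10, where the A431 value was not called with library size alone (-0.97) or without untreated A431 replicate 3 (-0.91). The A431 value of FERMT1 was also not called with other filters, without untreated A431 replicate 2 or without A431 CKI replicate 1. RPL10, a protein of the large ribosomal subunit, fell by 1.25 and 1.12, and counts of it may hold reads of pseudogene copies. VIM, the intermediate filament of mesenchymal cells, fell from 1875, 1532 and 1490.5 CPM to 835, 795 and 769 CPM in MDA-MB-231, with a log2 fold change of -1.03, or -0.92 without untreated replicate 1 and -0.96 with library size alone, neither of them a call. In A431 it stood under 10 CPM throughout, at 6.01, 8.03 and 7.11 CPM and 2.22, 3.14 and 2.68 CPM. E2F8, an E2F repressor of the cell cycle, was 1 of the 2 shared members of the G1 list, at -1.32 ± 0.098 and -1.08 ± 0.10. CXCL1, a neutrophil chemokine, fell by 1.53 and 1.04, the latter -0.92 and not called without untreated MDA-MB-231 replicate 2, and its sequence is close to those of other chemokines of its cluster.

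**Figure D2:**
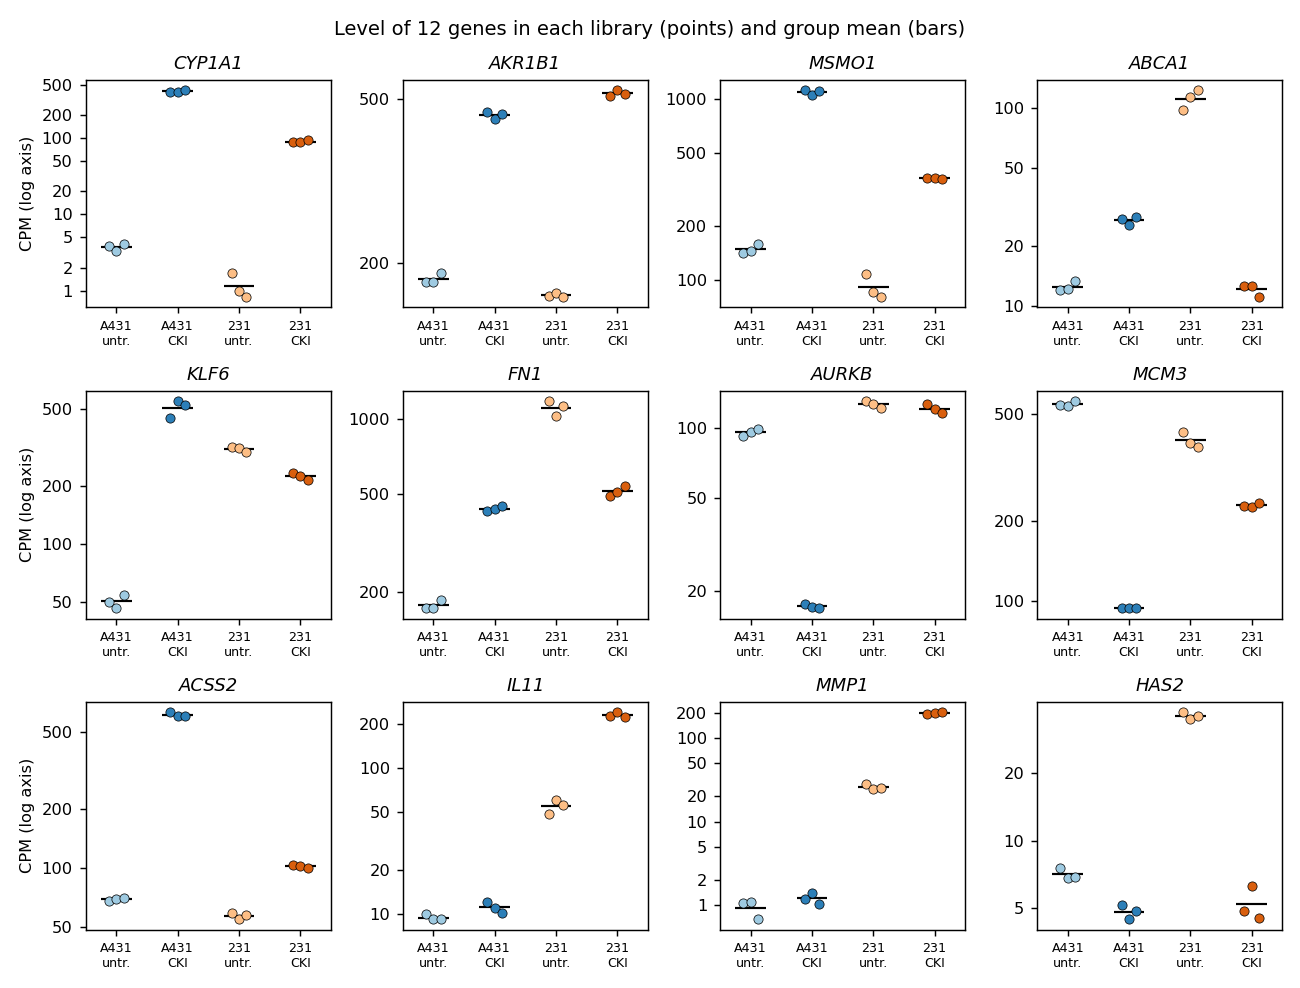
Each panel gives the CPM of 1 gene on a log axis in the 3 libraries (points) and the mean (bar) of each of the 4 groups, with 231 standing for MDA-MB-231 and untr. for untreated. CYP1A1, AKR1B1 and MSMO1 rise in both lines, ABCA1, KLF6 and FN1 move in opposite directions, AURKB, MCM3 and ACSS2 move further in A431, and IL11, MMP1 and HAS2 move further in MDA-MB-231.

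The largest class, a response larger in A431, held most tested genes of the mitosis and replication lists. Of 42 genes of mitosis and the spindle checkpoint, 39 fell in A431 and 0 were called in MDA-MB-231. The interaction was called negative in the same number, 39 of 42, against 9.62% of all genes tested. Median log2 fold changes were -1.95 in A431 and -0.09 in MDA-MB-231. Without untreated MDA-MB-231 replicate 1 the interaction was again called in 39 mitosis and spindle checkpoint genes, and with the vehicle control for A431 in 40. Opposite members numbered 3, and 9 without that replicate.

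AURKB, the kinase of the chromosomal passenger complex, stood at 92.6, 96.5 and 98.9 CPM in untreated A431 and 17.6, 17.2 and 16.9 CPM with CKI. In MDA-MB-231 it stood at 130.2, 127 and 121 CPM and 126, 120.3 and 116 CPM, so the groups overlapped there. The log2 fold change was -2.48 ± 0.068 (SE) in A431 and -0.06 ± 0.062 in MDA-MB-231, with an interaction of -2.42 ± 0.092 (edgeR adjusted p = 2.25e-09).

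CDC20, the activator of the anaphase-promoting complex, followed the same pattern. Its level was 291, 294 and 327 CPM in untreated A431 and 56.1, 54.1 and 56.8 CPM with CKI, and 263, 273 and 266 CPM and 255, 249 and 251 CPM in MDA-MB-231. CDCA5, which protects sister chromatid cohesion, and KIF22, a chromosome-moving kinesin, had interactions of -2.44 ± 0.096 (SE) and -1.96 ± 0.08. SPC24, a subunit of the kinetochore complex that holds microtubules, was opposite, from 28.1, 30.1 and 27.4 CPM to 5.85, 5.84 and 6.75 CPM in A431 and from 38.1, 40.8 and 39.2 CPM to 59.4, 51.6 and 50.5 CPM in MDA-MB-231. NCAPD3, a condensin II subunit, was opposite too, at -1.51 ± 0.061 (SE) and 0.24 ± 0.057.

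Mitotic genes are known to share a promoter element, the cell cycle genes homology region, with the letters TTTGAA. These letters, on either strand of the 250 bases before the start, were in 19 of the 35 promoters found for the 42 mitosis genes (54.3%), against 13.3% of all 35116 promoters and 9.1% of the 11811 promoters found for the 14848 genes tested. They were in 0 of 21 promoters of the origin licensing genes and in 1 of 28 of the replication fork genes, which are lists that fell in A431 as well. The match is a description of letters and not of binding. For comparison, the E2F-type letters TTTCGCGC or TTTGGCGC were in 4 of 28 replication fork promoters (14.3%), 2 of 21 origin licensing promoters (9.52%) and 2 of 35 mitosis promoters (5.71%), against 0.968% of all promoters and 1.54% of those of the genes tested. The promoters of the tested genes are an incomplete background, since the other tested genes had none in the table. The following stretches come from RefSeq (GRCh38.p14), 5′ to 3′ on the strand of the gene, of 4 mitosis genes with TTTGAA in capitals and of the helicase gene MCM6 with TTTGGCGC in capitals. They were taken because these 5 genes fell in A431 and carry the letters counted for mitosis and replication promoters. CDK1 holds another TTTGAA, not shown, that begins 13 bases before the start. CDC20 holds another on the other strand, 178 bases before the start. Which copy acts, if any, was not tested.
CDC20 (chr1:43358896-43358941, + strand): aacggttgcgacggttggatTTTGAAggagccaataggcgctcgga
CCNB2 (chr15:59105097-59105142, + strand): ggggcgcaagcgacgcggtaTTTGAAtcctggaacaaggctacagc
CDK1 (chr10:60778389-60778434, + strand): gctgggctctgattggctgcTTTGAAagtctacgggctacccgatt
PLK1 (chr16:23678840-23678885, + strand): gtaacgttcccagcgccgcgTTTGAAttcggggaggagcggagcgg
MCM6 (chr2:135876506-135876553, - strand): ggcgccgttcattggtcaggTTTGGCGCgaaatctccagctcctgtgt

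These 5 genes had no call in MDA-MB-231. CDK1, the kinase that drives entry into mitosis, changed by -1.84 in A431 and 0.04 in MDA-MB-231, CCNB2, one of its cyclins, by -2.10 and -0.30, and PLK1, a kinase of spindle assembly, by -2.05 and -0.11. MCM6, a subunit of the replicative helicase, changed by -1.82 and -0.83, and its interaction of -0.99 was not called.

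Members of the replication lists were called in A431 and not in MDA-MB-231. Of 24 origin licensing and MCM helicase genes, 21 fell in A431, 0 were called in MDA-MB-231 and 18 had a negative interaction, with medians of -1.86 and -0.34. For all genes tested, 10.4% fell in A431, 5.89% were called in MDA-MB-231 and 9.62% had a negative interaction. MCM3, a subunit of the helicase, stood at 538, 534 and 556 CPM in untreated A431 and 94.4, 94.6 and 94.3 CPM with CKI, and at 427, 389 and 376 CPM and 227, 225 and 232 CPM in MDA-MB-231. The groups were apart in each line, by -2.52 ± 0.067 (SE) and -0.80 ± 0.063 on the log2 scale, with an interaction of -1.72 (edgeR adjusted p = 2.11e-08). CDC45, which activates the helicase, had an interaction of -2.50 ± 0.12.

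Of 32 genes of the replication fork and chromatin assembly, 26 fell and 1 rose in A431, 0 were called in MDA-MB-231 and 24 had a negative interaction, with medians of -1.69 and -0.13. The all-gene shares to set beside this list and the next ones are 10.4% down in A431 and 9.62% with a negative interaction. RFC2, a subunit of the clamp loader, stood at 68.8, 72.8 and 72.9 CPM in untreated A431 and 12.7, 12.3 and 12.9 CPM with CKI, and at 62.5, 57.7 and 57.3 CPM and 52.3, 54.7 and 55.4 CPM in MDA-MB-231. The drop in A431 was -2.50 ± 0.07 (SE), and the difference in MDA-MB-231, -0.13 ± 0.064, was not called. Of 25 nucleotide synthesis genes, 17 fell and 1 rose in A431, 1 fell in MDA-MB-231 and 13 had a negative interaction. DTYMK, which makes thymidine diphosphate, changed by -1.95 ± 0.075 in A431 and 0.02 ± 0.071 in MDA-MB-231. Of 27 genes of homologous recombination and the Fanconi pathway, 20 fell in A431, 0 were called in MDA-MB-231 and 18 had a negative interaction, with XRCC2, a recombination protein, at -2.38 and -0.02.

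Regulators of the G1 phase moved in both directions. Of 23 tested members, 4 rose and 10 fell in A431, 2 fell in MDA-MB-231, and the interaction was positive in 3 and negative in 6. Over all genes tested, 11.9% rose and 10.4% fell in A431 and 2.16% fell in MDA-MB-231. The interaction was positive in 8.87% and negative in 9.62% of them. The counts of rises in A431 and of positive interactions lay near those shares. CDKN1A, the inhibitor p21 that arrests the cycle, stood at 80.2, 78.5 and 85.3 CPM in untreated A431 and 457, 493 and 482 CPM with CKI. In MDA-MB-231 it stood at 126, 147 and 149 CPM and 179, 182 and 186 CPM. The interaction was 2.18 ± 0.11 (SE, edgeR adjusted p = 1.39e-08) and 1.21 with the vehicle control. CDKN2C, another inhibitor, moved the other way, at -2.0 in A431 and -0.58 in MDA-MB-231. CCND1, the main G1 cyclin, was not called in either line, at 0.38 and -0.09, and its interaction had a 95% interval of 0.13 to 0.81.

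Ribosome biogenesis and respiratory chain genes also held members that fell further in A431, with smaller steps. Of 44 ribosome biogenesis genes, 20 fell in A431, 1 fell in MDA-MB-231 and 13 had a negative interaction, with medians of -0.98 and -0.29. LYAR, a nucleolar protein, had an interaction of -1.59 ± 0.098 (SE), while UTP20, of the small subunit processome, was shared at -1.49 and -1.13. Of 79 cytosolic ribosomal proteins, 29 fell in A431 and 1 in MDA-MB-231, beside 10.4% and 2.16% of all genes tested. Only 2 had a negative interaction, a smaller share than the 9.62% of all genes tested, and 0 had one with the vehicle control. RPLP2 was among the 2 with -1.08, which was -0.53 with offsets for GC content and transcript length and -0.67 with the vehicle control, not called in either. Other filters and leaving out some single A431 libraries, such as untreated replicate 3 (-0.96), also left RPLP2 uncalled. Of 75 respiratory chain subunits, 18 fell in A431, 0 were called in MDA-MB-231 and 15 had a negative interaction. ATP5MC1, of the ATP synthase ring, went from 175, 177 and 186 CPM to 43.7, 46.3 and 48.0 CPM in A431 and from 133, 118 and 112 CPM to 116, 98.9 and 102 CPM in MDA-MB-231.

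The count for respiratory chain subunits depended on the setting, with 24 negative interactions without untreated MDA-MB-231 replicate 1, 5 with offsets for GC content and transcript length, and 2 with the vehicle control for A431. Their transcripts are short, with a median of 763 bases beside 3152 over all genes tested, and across 14810 genes the interaction had a Spearman correlation of 0.29 with length and -0.17 with GC content. The part of length in these calls was not tested further.

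**Figure D3:**
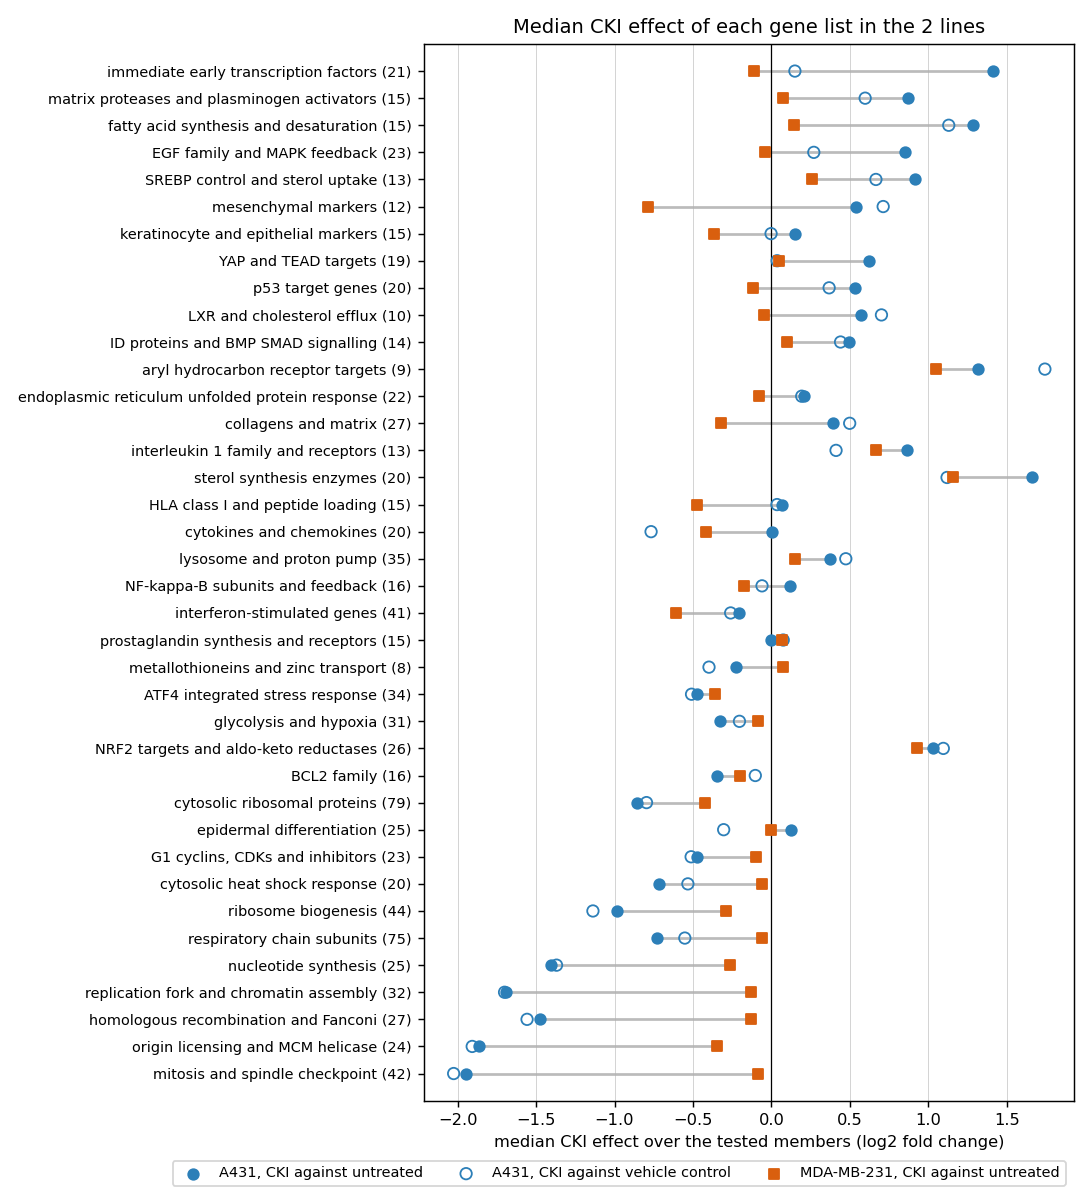
For each of 38 gene lists, with the number of tested members in brackets, the median log2 fold change of CKI is plotted in A431 against untreated (filled circles), in A431 against the vehicle control (open circles) and in MDA-MB-231 against untreated (squares), sorted by the median interaction. The mitosis list sits at -1.95 in A431 and -0.09 in MDA-MB-231, the sterol and NRF2 lists are near or above 1 in both lines, and for the immediate early list the filled circle at 1.41 and the open circle at 0.15 lie far apart.

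Rises larger in A431 included lipid synthesis. Of 15 fatty acid synthesis and desaturation genes, 10 rose in A431, 0 were called in MDA-MB-231 and 10 had a positive interaction against 8.87% of all genes, with medians of 1.28 and 0.15. ACSS2, which makes acetyl-CoA from acetate, stood at 68.1, 69.6 and 70.6 CPM in untreated A431 and 629, 606 and 604 CPM with CKI, and at 59.0, 54.7 and 57.6 CPM and 104, 103 and 99.9 CPM in MDA-MB-231. It rose in both lines with no overlap, by 3.14 ± 0.064 (SE) and 0.84 ± 0.061, and further in A431 by 2.30 ± 0.086 (edgeR adjusted p = 2e-09). FASN, the fatty acid synthase, changed by 1.18 and -0.21, and SCD, the stearoyl-CoA desaturase, by 2.36 and -0.49. With the vehicle control for A431, 6 of the fatty acid synthesis and desaturation genes were called.

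The controllers of SREBP and of sterol uptake held no shared gene. Of 13 members, 6 rose in A431 and 0 in MDA-MB-231, where 1 fell, and 6 had a positive and 1 a negative interaction. Over all genes tested, 11.9% rose in A431, and 8.87% had a positive and 9.62% a negative interaction. INSIG1, which retains SREBP in the endoplasmic reticulum and is itself a target, stood at 120.4, 126 and 131 CPM in untreated A431 and 709, 716 and 725 CPM with CKI, and at 183, 156 and 154 CPM and 282, 291 and 289 CPM in MDA-MB-231. Its interaction was 1.71 ± 0.10 (SE) with untreated controls and 0.83 with the vehicle control, where it was not called. TMEM97, a sterol-regulated binding protein of the lysosomal cholesterol transporter, was opposite, at -0.82 ± 0.091 (SE) in A431 and 0.66 ± 0.088 in MDA-MB-231.

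Among single genes whose rise was larger in A431, GNE, the first enzyme of sialic acid synthesis, stood at 18.1, 18.4 and 18.7 CPM in untreated A431 and 132, 125 and 135 CPM with CKI, and between 57.7 and 67.6 CPM in all 6 MDA-MB-231 libraries. F2R, the thrombin receptor, went from 2.02, 1.82 and 1.88 CPM to 23.5, 25.7 and 26.4 CPM in A431 and from 118, 108 and 106 CPM to 123, 129 and 129.7 CPM in MDA-MB-231, so that the CKI level in A431 was still under that of MDA-MB-231. WIPI1, a protein of the forming autophagosome, had an interaction of 2.88 ± 0.14 (SE). For these 3 genes the interaction stayed called with the vehicle control, at 2.16, 3.12 and 2.23. Of 35 genes of the lysosome and proton pump, 7 rose in A431 and 1 in MDA-MB-231, with 5 positive and 2 negative interactions. Of 20 target genes of p53, 6 rose and 2 fell in A431 with 0 called in MDA-MB-231, and 5 interactions were positive and 1 negative. Over all genes tested, 11.9% rose in A431 and 3.72% in MDA-MB-231. The interaction was positive in 8.87% and negative in 9.62%.

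Immediate early transcription factors, which cells switch on within minutes of a stimulus, had the largest positive median interaction of the lists, 1.99. Of 21 members, 16 rose in A431, 0 were called in MDA-MB-231, and 14 had a positive interaction. The shares over all genes tested were 11.9%, 5.89% and 8.87%. ATF3, a stress-induced repressor, stood at 11.8, 10.3 and 13.7 CPM in untreated A431 and 289, 374 and 349 CPM with CKI, and between 14.3 and 17.3 CPM in the MDA-MB-231 libraries. DUSP1, a phosphatase that shuts off MAP kinases, went from 26.1, 21.2 and 27.7 CPM to 336, 397 and 391 CPM in A431 and stood at 217, 185 and 171 CPM and 213, 202 and 204 CPM in MDA-MB-231. KLF6, a zinc finger factor, went from 49.99, 46.3 and 54.3 CPM to 451, 551 and 526 CPM in A431 and from 318, 313 and 299 CPM to 233, 225 and 215 CPM in MDA-MB-231.

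The A431 vehicle control held the same rises. Against untreated A431, the vehicle control lay higher by 5.15 on the log2 scale for ATF3, 3.58 for DUSP1 and 3.33 for KLF6, and CKI by 4.82, 3.91 and 3.34. Set against the vehicle control in A431, the interaction was -0.23 for ATF3, 0.21 for DUSP1 and 0.48 for KLF6, and the number of positive interactions among the immediate early transcription factors was 4 of 21. The EGF family and MAPK feedback genes moved likewise, with 9 positive interactions of 23 tested with untreated controls and 2 with the vehicle control. With untreated controls 8.87% of all genes tested were positive. ERRFI1, an inhibitor of the EGF receptor, stood at 48.4, 44.4 and 46.1 CPM in untreated A431 and 181, 176 and 180.1 CPM with CKI, and fell from 658, 630.4 and 657 CPM to 446, 448 and 448 CPM in MDA-MB-231. Its interaction was 2.49 ± 0.085 (SE) with untreated controls and -0.09 with the vehicle control. No vehicle control of MDA-MB-231 was analysed here, so the lines cannot be compared for an effect of the vehicle.

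Some inflammatory genes also turned with the choice of control. CXCL8, interleukin 8, stood at 32.4, 33.3 and 40.1 CPM in untreated A431 and 141, 127 and 144 CPM with CKI, and at 90.9, 113 and 106 CPM and 79.8, 76.3 and 75.8 CPM in MDA-MB-231. With untreated controls its interaction was 2.38 ± 0.14 (SE, edgeR adjusted p = 5.2e-08), and with the vehicle control it was -0.94. TNFAIP3, a feedback inhibitor of NF-kappa-B, turned from 2.53 to -0.82, and NFKBIZ, an atypical inhibitor protein of the same pathway, from 3.27 to -0.03. IL1B, which encodes interleukin 1 beta, stood at 149, 161 and 167 CPM and 362, 368 and 385 CPM in A431 and 10.1, 14.4 and 13.8 CPM and 21.5, 21.4 and 23.7 CPM in MDA-MB-231. Its interaction was not called with untreated controls (0.43) and was -1.09 with the vehicle control. Over 20 tested cytokines and chemokines, 6 interactions were positive and 3 negative with untreated controls, and 1 was positive and 5 were negative with the vehicle control. With untreated controls 8.87% of all genes tested were positive and 9.62% negative.

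In the class with a response larger in MDA-MB-231, MMP1, the interstitial collagenase, stood at 28.5, 24.5 and 25.5 CPM in untreated MDA-MB-231 and 195, 202 and 205 CPM with CKI, and between 0.669 and 1.40 CPM in the A431 libraries. The rise was 2.94 ± 0.091 (SE) in MDA-MB-231, and the interaction was -2.57 ± 0.24 (edgeR adjusted p = 1.76e-06). IL11, a cytokine of the interleukin 6 family, stood at 48.7, 59.8 and 55.6 CPM in untreated MDA-MB-231 and 225, 239 and 223 CPM with CKI. In A431 it stood at 10.0, 9.26 and 9.24 CPM and 12.2, 11.1 and 10.2 CPM, with every CKI library above the untreated ones and a change of 0.23 ± 0.10 that did not pass the test.

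TNFSF15, a ligand of death receptor 3, rose from 18.3, 19.8 and 19.2 CPM to 84.3, 99.9 and 96.7 CPM in MDA-MB-231 and stood between 7.69 and 10.6 CPM in A431. TRNP1, a nuclear protein of neural progenitors, had an interaction of -1.88 ± 0.16 (SE), and SLC12A8, a transporter, -1.09 ± 0.10, which was -0.93 and not called with the vehicle control. SLC12A8 was also not called under stricter filters and without some single A431 libraries, such as CKI replicate 1 (-0.97). COL17A1, a collagen of hemidesmosomes, rose by 1.07 in MDA-MB-231 and changed by -0.08 in A431, where its libraries stood between 632 and 731 CPM beside 11.6 to 27.9 CPM in MDA-MB-231. IL1A, interleukin 1 alpha, rose in both lines, by 0.86 ± 0.087 (SE) in A431 and 1.96 ± 0.12 in MDA-MB-231. Its interaction was -1.1, or -0.97 and not called without untreated MDA-MB-231 replicate 1, and -3.11 with the vehicle control.

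Among the drops larger in MDA-MB-231 were both genes of hyaluronan turnover picked by the rule. HAS2, a hyaluronan synthase, stood at 37.4, 35 and 36.2 CPM in untreated MDA-MB-231 and 4.87, 6.23 and 4.48 CPM with CKI, and at 7.57, 6.80 and 6.87 CPM and 5.14, 4.44 and 4.84 CPM in A431. The drop was -2.80 ± 0.12 (SE) in MDA-MB-231 and -0.56 ± 0.13 in A431. The vehicle control of A431 lay 1.76 above untreated for HAS2 on the log2 scale, so that against it CKI was lower by 2.31 in A431 and the interaction was 0.48 and not called. CEMIP, a hyaluronan-binding protein needed for its breakdown, went from 183, 219.6 and 228 CPM to 29.7, 31.5 and 34.6 CPM in MDA-MB-231 and from 4.57, 5.35 and 5.11 CPM to 3.44, 4.30 and 3.40 CPM in A431. Its interaction was 2.29 ± 0.18 (SE) with untreated controls and 2.66 with the vehicle control. SIGIRR, an inhibitory receptor of the interleukin 1 family, FHDC1, a formin, and RNF144A, a ubiquitin ligase, fell in MDA-MB-231 by 1.3, 1.34 and 1.1 on the log2 scale with changes of 0.07, -0.05 and 0.31 in A431.

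Cholesterol export genes were among those with opposite responses. ABCA1, the pump that loads cholesterol onto apolipoproteins and a target of the liver X receptor, stood at 12.1, 12.2 and 13.3 CPM in untreated A431 and 27.6, 25.7 and 28.1 CPM with CKI. In MDA-MB-231 it stood at 97.3, 114 and 123 CPM untreated and 12.7, 12.6 and 11.1 CPM with CKI, so the CKI level there was that of untreated A431. The log2 fold changes were 1.12 ± 0.10 (SE) and -3.20 ± 0.10, and the interaction was 4.32 ± 0.14 (edgeR adjusted p = 1.16e-09), or 4.39 with the vehicle control. The gene lies at chromosome 9, 107543287 to 107690436 (GRCh37). Of 10 liver X receptor and efflux genes, 3 were opposite, against 3.91% of all genes tested. The others were ABCG1, another cholesterol pump, at 2.55 and -3.71, and MYLIP, a ubiquitin ligase, at 0.92 and -1.63, both named after their values were seen. ABCG1 stood lower than ABCA1 in the A431 CKI libraries, at 10.2, 9.27 and 10.3 CPM. The levels behind its value in MDA-MB-231 are not given here.

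Matrix proteases were also divided between the lines. All 15 tested matrix proteases, plasminogen activators and inhibitors were in some class of call, 6 of them opposite, 6 larger in A431, 2 larger in MDA-MB-231 and 1 called in a line with no interaction call. Over all genes tested, 3.91% were opposite, 10.8% larger in A431 and 1.2% larger in MDA-MB-231. TIMP3, a protease inhibitor of the matrix, rose from 285, 277 and 295 CPM to 360.5, 376 and 375 CPM in A431 and fell from 799, 846 and 851 CPM to 306, 315 and 326 CPM in MDA-MB-231, with an interaction of 1.77 ± 0.086 (SE). PLAT, the tissue plasminogen activator, went the other way, from 47.2, 50.3 and 48.7 CPM to 37.7, 42.0 and 38.0 CPM in A431 and from 597, 699 and 697 CPM to 1355, 1319.6 and 1385 CPM in MDA-MB-231. Against the vehicle control in A431, 2 of the matrix proteases and plasminogen activators were opposite instead of 6, and the interaction of PLAT was -0.59.

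FN1, fibronectin, rose in A431 from 171, 172 and 186 CPM to 424, 433 and 443 CPM and fell in MDA-MB-231 from 1184, 1033 and 1128 CPM to 489.8, 507 and 537 CPM. The groups were apart in each line, and the lines came closer together with CKI. The log2 fold changes were 1.3 ± 0.072 (SE) and -1.12 ± 0.071, with an interaction of 2.42 (edgeR adjusted p = 3.84e-09) or 1.75 with the vehicle control. Of the 12 mesenchymal markers, 4 were opposite and 3 were shared, the latter being VIM, CDH2 and CAV1, which are named after their values were seen. CDH2, N-cadherin, rose by 3.04 and 2.10, and CAV1, of the membrane invaginations called caveolae, changed by -1.49 and -1.11. NT5E, the surface enzyme CD73 and a YAP target, was opposite at 1.21 ± 0.093 (SE) and -0.45 ± 0.09. Of 27 collagen and matrix genes, 4 were opposite, and the interaction was positive in 7 and negative in 1. Of all genes tested, 3.91% were opposite and 1.61% shared, and 8.87% had a positive and 9.62% a negative interaction.

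Other opposite genes came from several roles. NUPR1, a stress-induced chromatin protein, went from 5.26, 5.25 and 4.80 CPM to 16.0, 15.9 and 16.3 CPM in A431 and from 21.3, 19.3 and 17.9 CPM to 8.46, 9.63 and 8.21 CPM in MDA-MB-231, so the CKI libraries of A431 came near the untreated ones of MDA-MB-231 and the reverse. Its interaction was 2.80 ± 0.14 (SE, edgeR adjusted p = 1.83e-08) and 3.21 with the vehicle control. MCL1, which blocks apoptosis, stood at 332, 335 and 332 CPM and 816, 901 and 880.1 CPM in A431 and at 532, 511 and 490.4 CPM and 305, 311 and 298 CPM in MDA-MB-231, with an interaction of 2.13 that was 0.89 and not called with the vehicle control. BCL2L12, another family member, was opposite in the other direction, at -1.93 ± 0.12 and 0.34 ± 0.11. MT1X, a zinc-binding metallothionein whose copies are close to one another, fell in A431 by 1.36 and changed by 0.71 ± 0.074 in MDA-MB-231.

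NEDD9, a scaffold of focal adhesions, and BHLHE40, a repressor of the circadian clock, rose in A431 by 2.70 and 2.39 and changed by -0.50 and -0.40 in MDA-MB-231. Against the vehicle control in A431 their interactions were 1.5 and 1.13. KRT15, a keratin of basal keratinocytes, fell from 1599, 1574 and 1495 CPM to 734, 791 and 786 CPM in A431 and rose from 4.98, 5.55 and 5.01 CPM to 16.9, 15.8 and 14.8 CPM in MDA-MB-231, a line in which its level stayed more than an order of magnitude lower. NUDT1, which clears oxidised nucleotides, and ADGRF1, an adhesion receptor, had interactions of -2.30 ± 0.11 (SE) and -2.24 ± 0.11.

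Among interferon-stimulated genes 27 of 41, and among HLA class I and peptide loading genes 12 of 15, were in no class of call. The same held for 69.9% of all genes tested. Of 41 interferon-stimulated genes, 1 rose and 4 fell in A431, 1 rose and 7 fell in MDA-MB-231, and 7 had a positive interaction. Over all genes tested, 11.9% rose and 10.4% fell in A431, and 3.72% rose and 2.16% fell in MDA-MB-231. The interaction was positive in 8.87% of them. STAT2, a transcription factor of the interferon response, was opposite at 1.13 ± 0.073 (SE) and -0.29 ± 0.073, and IFITM1, an antiviral membrane protein with close paralogs, was shared at -1.75 and -1.0, the latter so near the threshold that DESeq2 (-0.996) and scaling by library size alone (-0.935) did not call it. Another scaling, other filters and several left-out libraries also left IFITM1 uncalled in MDA-MB-231. The median interaction of the interferon-stimulated genes, 0.22, became -0.03 without untreated MDA-MB-231 replicate 1. Of 15 HLA class I and peptide loading genes, 1 had an interaction call, HLA-F at 1.40, for which reads of other HLA genes are hard to tell apart.

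**Figure D4:**
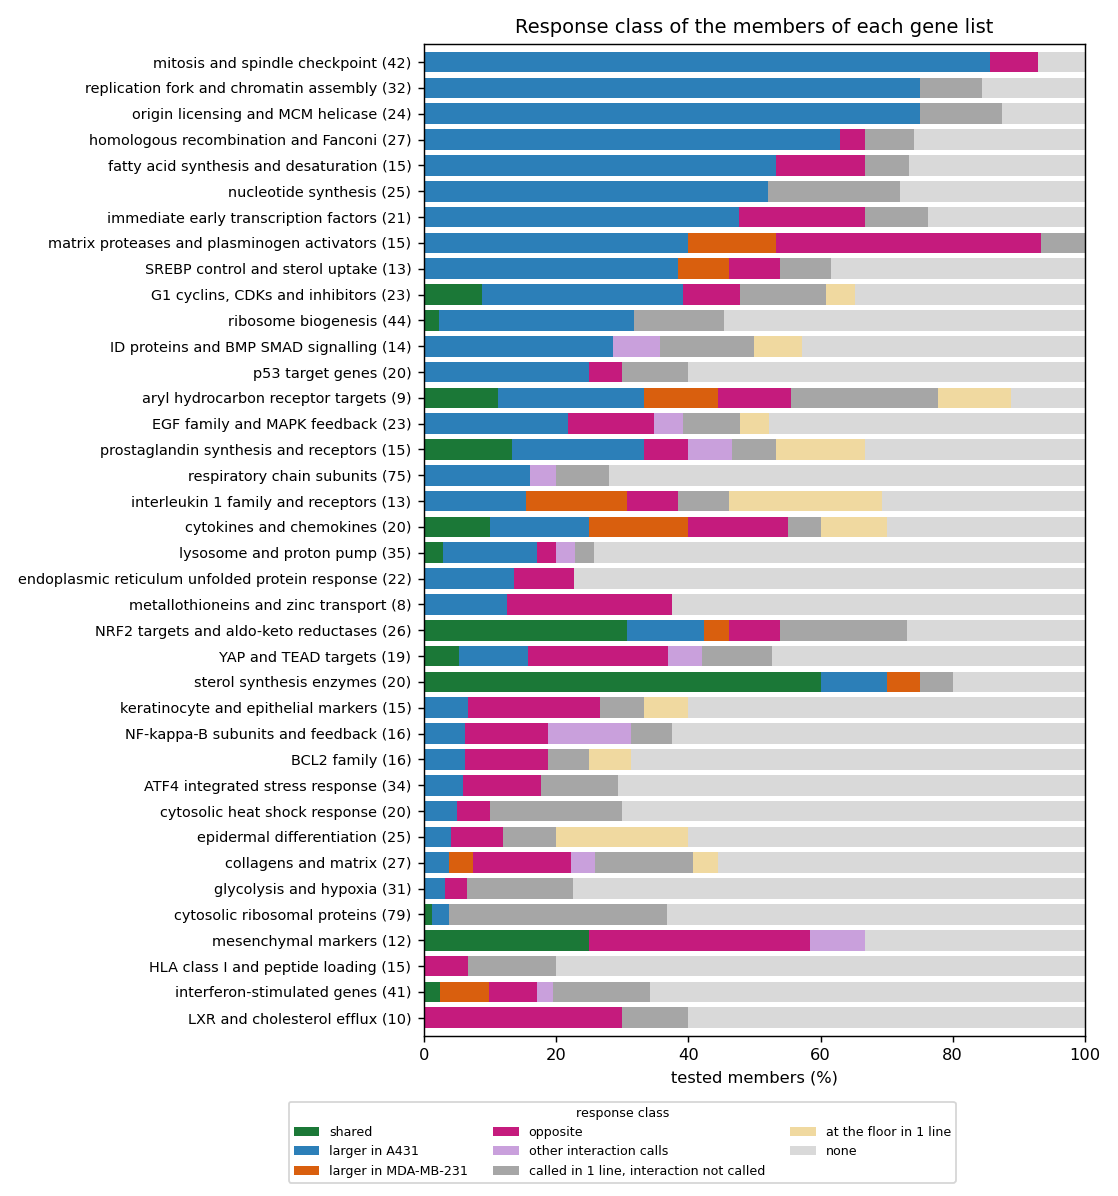
Bars give the share of tested members (percent, numbers in brackets) of each of 38 gene lists in each response class, sorted by the share larger in A431. Of the mitosis list, 36 of 42 members are larger in A431, against 7 of 23 in the G1 list, 12 of 20 sterol enzymes are shared, and the 6 opposite genes of 15 make the matrix protease list the one with the largest opposite share.

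The remaining lists are given by their counts of interaction calls. Over all genes tested, the interaction was called positive in 8.87% and negative in 9.62%, and in A431 11.9% rose and 10.4% fell. Counts near these shares do not set a list apart from the other genes. Of 22 genes of the endoplasmic reticulum unfolded protein response, 4 rose in A431 and 5 had a positive interaction. SEL1L, an adaptor of endoplasmic reticulum degradation, was among them with 1.27, but not with the vehicle control (0.80) or with offsets for GC content and transcript length (0.85). Of 34 ATF4 targets, 4 had a positive and 2 a negative interaction, and of 31 glycolysis and hypoxia genes 1 had each. VEGFA, the vascular growth factor, had a positive interaction of 1.04, or 0.98 and not called with offsets for GC content and transcript length, and GPI, a glycolytic isomerase, a negative one of -1.35 with the vehicle value at -0.98. Of 20 cytosolic heat shock genes, 1 rose and 4 fell in A431 and 2 had a negative interaction. Of 14 ID and BMP genes, 5 had a positive interaction, with a median of 0.51. Of 13 interleukin 1 family genes, 3 interactions were positive and 2 negative, with a median of 0.43. With the vehicle control for A431, 2 were positive and 3 negative, with a median of -0.55. Of 16 NF-kappa-B genes 4 were positive and 1 negative, and with the vehicle control 1 was positive and 0 negative. The 19 YAP and TEAD targets had 5 positive and 2 negative interactions and a median of 0.75 with untreated controls, and 1 positive and 5 negative ones with the vehicle control. The 15 keratinocyte markers had 2 in each direction, the 8 metallothionein and zinc transport genes 3 negative ones, the 16 BCL2 family genes 2 positive and 1 negative, and the 15 prostaglandin genes 3 positive and 2 negative. Among 25 epidermal differentiation genes, 2 interactions were negative and 1 was positive, with 17 members at no more than 3 counts in every library of a line.

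Another estimate of the difference between the lines came from 12 libraries that share none with those above, in which CKI was added to doxorubicin in A431 and to 5-FU in MDA-MB-231. The drug differs between the lines, so line and drug cannot be told apart there. The difference of the CKI effects was called in 2587 of 16339 genes (15.8%), 1252 positive (7.66%) and 1335 negative (8.17%). Most interaction calls made without a drug were not repeated. Of the 1605 genes larger in A431, 316 had the same call with a drug and 102 a call of opposite sign. The same counts were 62 and 17 for the 178 genes larger in MDA-MB-231, and 140 and 22 for the 581 opposite genes. Among single genes, CYP1A1 had a difference of 1.27 in these libraries, ABCA1 3.01, FN1 1.22 and AURKB -1.51. The median over the 42 mitosis genes was -0.88, with 15 called negative.

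Some genes changed sign between the settings without and with a drug. IL11 had an interaction of -1.83 without a drug and a difference of 2.11 with a drug. IL1A had -1.1 without and 1.54 with a drug, and VEGFA 1.04 without and -1.19 with a drug. Over the 20 cytokines and chemokines tested, 11 differences were positive and 0 negative with a drug, beside 6 and 3 without.

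**Figure D5:**
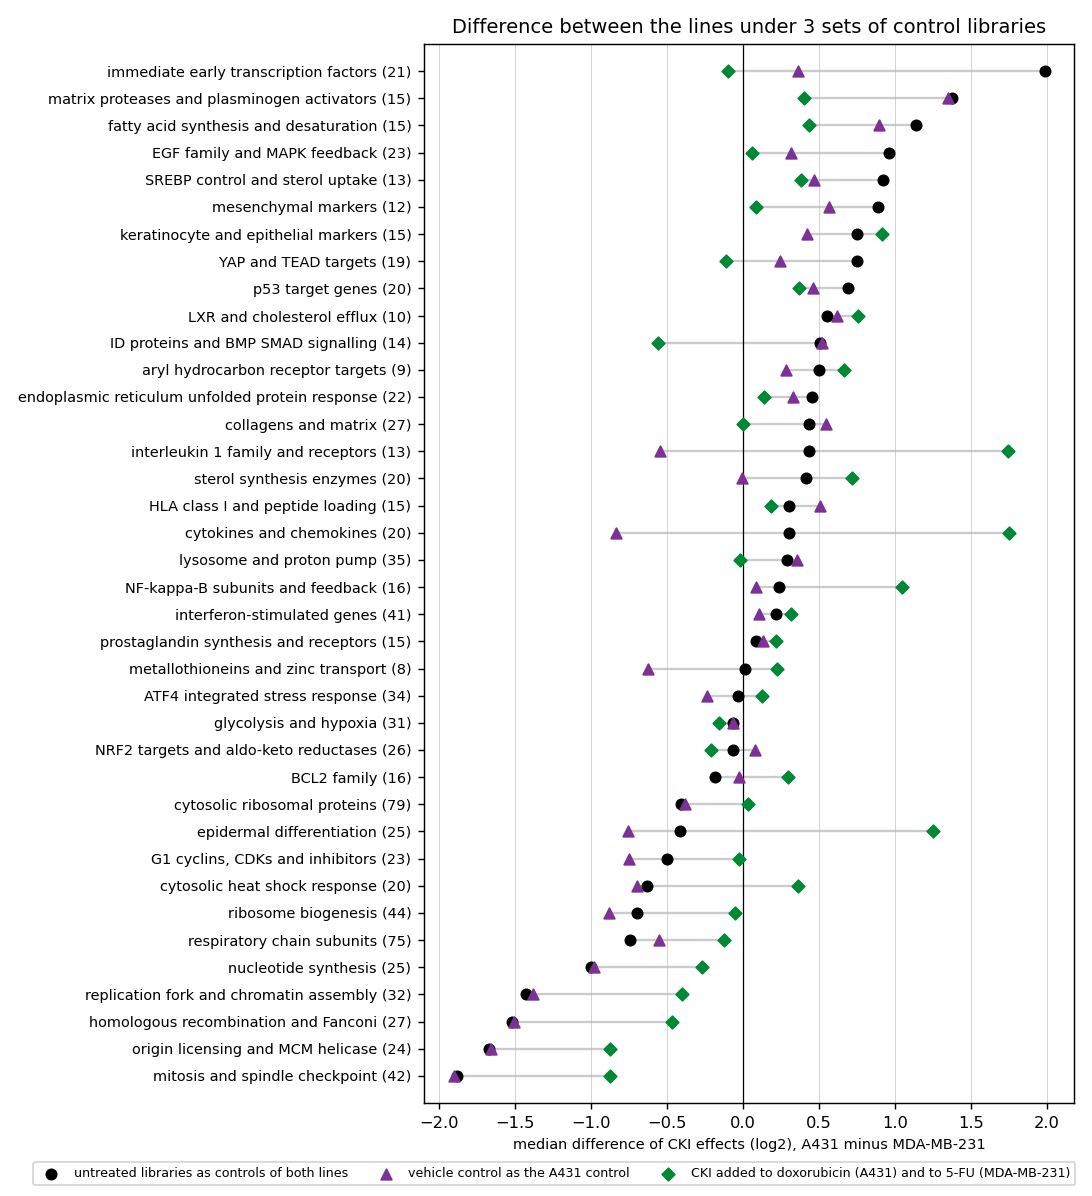
For each of 38 lists, with the number of tested members in brackets, the median difference of CKI effects (A431 minus MDA-MB-231, log2) is plotted with untreated controls in both lines (circles), with the vehicle control for A431 (triangles) and with a drug present in all libraries (diamonds). Circle and triangle lie close for the mitosis list (-1.88 and -1.90), while for the immediate early list they lie at 1.99 and 0.36 and for cytokines at 0.30 and -0.84.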

How the data were processed

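The authors deposited 1 table of raw read counts per gene for all 27 libraries, with 24566 rows. The submitters' processing notes name Trim Galore 0.3.7, STAR 2.5.3a, edgeR and the genome build hg19, and the read counter and gene annotation are not given in the sources used here. Libraries were unstranded, so reads of a gene and of its antisense partner cannot be told apart. Rows were matched to symbols through their gene identifiers (24422 of 24566), and 416 rows share 194 Ensembl identifiers.

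Counts of the 12 libraries were filtered with filterByExpr, scaled by TMM and fitted with edgeR 4.0.16 (R 4.3.3, limma 3.58.1) as 1 mean per group, and the quasi-likelihood test was applied to each contrast with Benjamini-Hochberg adjustment over all genes tested. A call needed an adjusted p under 0.05 and an absolute log2 value over 1. CPM are TMM-scaled, and ± gives a standard error, with n = 3 libraries per group. The fit was tested on simulated data of 14814 genes, where 94% of 200 changed genes were recovered (91% at a log2 change of 2 and 97% at 3) and 2.08% of 192 calls were wrong.

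The members and the 38 gene lists (972 entries) were chosen with earlier results of these data known. Named genes were those with the smallest adjusted p in each direction of the interaction and in the shared class of each list, the 5 with the smallest adjusted p in each response class and direction whose libraries did not overlap and exceeded 3 counts in each line, and a fixed set of 14 genes. ABCG1, CAV1, CCNB2, CDH2, CDK1, FASN, MCM6, MYLIP, PLK1 and SCD were chosen after their values were seen. Results for some genes that the rule picks are not reported here. Of the 972 list entries, 31 were not tested. Of these, 6 had no row and were not analysed here, and the others did not pass the filter.

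Alternatives were DESeq2 1.42.0, the likelihood ratio test, other scalings and filters, all libraries in the fit, a replicate block, offsets for GC content and length, the vehicle control, and leaving out each library. The alternative with 1 row per Ensembl identifier was added after seeing the data. Promoters came from RefSeq (GRCh38.p14), and gene positions from GENCODE on GRCh37.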

Additional observations from a re-analysis of the deposited data

Results flagged for a closer look

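The CKI effect differed between the lines in 2745 genes by the test of the interaction itself. Those with the smallest adjusted p among genes whose libraries moved in opposite directions were KLF6 (3.81 on the log2 scale), ERRFI1 (2.49), ABCA1 (4.32), NEDD9 (3.19) and BHLHE40 (2.79), which were higher with CKI in A431 and lower in MDA-MB-231. KRT15 (-2.62), SPC24 (-2.67), NCAPD3 (-1.75), NUDT1 (-2.30) and ADGRF1 (-2.24) moved the other way. When the vehicle control replaced untreated A431, the values were 0.48 for KLF6 and -0.09 for ERRFI1, neither called, and 4.39 for ABCA1, 1.5 for NEDD9 and 1.13 for BHLHE40.

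In the libraries that also held a drug, which the main comparison does not use, the CKI effect differed between the lines in 2587 genes. Each group had 3 libraries, so no library was tested as an outlier.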

How the results depend on the processing

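DESeq2 called 2812 interactions, and 93.3% of the 2745 calls remained. Offsets for GC content and length kept 71.9%, the vehicle control as A431 control 60.4%, with 31 signs turned, and leaving out untreated MDA-MB-231 replicate 1 kept 89.5%. With at least 10 counts in every library, 935 interactions were more negative in A431, A431 had 2187 calls (936 down), MDA-MB-231 had 381 (235 up and 146 down), 118 genes were shared, 87 were larger in MDA-MB-231 and 1611 differed with a drug. With the filter passed in each line, MDA-MB-231 had 573 calls, 194 of them down. With the adjusted p alone, interactions numbered 6974 (3430 positive and 3544 negative), A431 calls 9397 (4729 up and 4668 down) and MDA-MB-231 calls 4676 (2295 up and 2381 down), with 1275 shared, 5003 larger in A431, 783 larger in MDA-MB-231, 928 opposite and 9087 with a drug. With the vehicle control 370 genes were opposite, and these interactions turned: CXCL8 (-0.94), NFKBIZ (-0.0295), ERRFI1 (-0.0914), ATF3 (-0.23), IL1B (-1.09), IL6 (-0.28) and TNFAIP3 (-0.82). The cause was not tested, and the vehicle was labelled for A431 only. Leaving out 1 library at a time gave 2646 to 2953 interactions (1273 to 1556 positive, 1143 to 1516 negative), 3248 to 3463 calls in A431 (1764 to 2113 up, 1227 to 1616 down) and 810 to 955 in MDA-MB-231 (505 to 603 up, 295 to 352 down). The ranges were 215 to 248 shared, 1519 to 1636 larger in A431, 163 to 194 larger in MDA-MB-231, 428 to 914 opposite and 2485 to 2600 with a drug. The opposite class was smallest without MDA-MB-231 CKI replicate 1 and largest without untreated MDA-MB-231 replicate 1.

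Deviations of same-numbered libraries of a line had correlations from -0.02 to 0.097, beside -0.09 to 0.04 for differently numbered ones. Any sharing by number was therefore weak, and the numbers were not treated as pairs. With the replicate block the interaction was called in 2764 genes, A431 had 3318 calls, MDA-MB-231 had 851 and 551 genes were opposite. Of 123 results for named genes, 82 kept their direction and side of the threshold under all 26 settings. For the others, the settings named beside a gene above are examples, and further settings lost some of these calls. Lists whose median interaction lay near 0 (glycolysis, NRF2 targets, metallothioneins, ATF4, BCL2 family, prostaglandins) changed sign under some settings, and no direction is given for them. The medians of the sterol enzymes, the interleukin 1 family and the cytokines and chemokines turned negative with the vehicle control. That of the interferon-stimulated genes turned negative without untreated MDA-MB-231 replicate 1. Depth limits genes at no more than 3 counts in a line.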
